A study of Mus musculus with 6 samples.

Results

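This account follows 69 genes of mitochondrial protein import, metabolite carriage and membrane dynamics in smooth muscle cells of the mouse aorta in which Sirt6, an NAD-dependent deacylase, was knocked down. They were taken by symbol from the tables' 7384 genes: the Timm, Tomm and Samm50 import genes, the Slc25a and Mtch carriers, the Chchd genes, the Vdac channels, prohibitins, calcium uniporter genes, fusion, fission and mitophagy genes, and matrix proteases. Of the 119 annotated mouse genes whose symbol fits the same pattern, the other 50, among them Opa1, Mfn2, Mcu, Immt and Tfam, were not analysed here. The members comprised 67 protein-coding genes and 2 pseudogenes, Bnip3l-ps and Vdac3-ps1.

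One group of cultures received an siRNA against Sirt6 (siSirt6, 3 libraries) and the other was labelled Control (3 libraries), all after 48 h. Both were vascular smooth muscle cells isolated from aorta and grown in culture. The sources used here give neither the strain, sex and age of the mice nor the treatment of the Control cultures. Nothing states that the 3 libraries of a group came from separate isolations, so the p-values measure the spread between these libraries, which may be technical. Each library gave normalised read counts, which are whole reads divided by 1 factor per library.

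Sirt6 had normalised read counts of 44.5, 59.8 and 63.5 in siSirt6, against 252, 257 and 270.4 in Control, so the knocked-down transcript stood at 0.215 of its Control level (log2 fold change -2.21 ± 0.141 SE, limma with Benjamini-Hochberg adjustment, adjusted p = 1.16e-15). The listed genes took 14458847 to 14866718 recovered reads per library in 5 libraries. For siSirt6 replicate 1 the figure was 15526399, but a check did not accept the read unit recovered there. Of 10 smooth muscle markers, 8 were in the tables, with summed normalised counts of 118453 to 119801 in siSirt6, against 74856 to 75669 in Control; 6 were higher and 2 lower. Markers of endothelial cells also differed: 9 of 10 were listed, all 9 higher, with sums of 4391 to 4517 in siSirt6, against 2943 to 3172 in Control. Of 9 adventitial fibroblast markers 8 were listed, 3 higher and 5 lower, with sums of 24982 to 25787 in siSirt6, against 26802 to 26878 in Control. Of 10 macrophage and leukocyte markers 3 were listed, all higher, with sums of 1978 to 2018 in siSirt6, against 1777 to 1822 in Control. Of 7 adipocyte markers 3 were listed, 2 higher and 1 lower (1765 to 1793 in siSirt6, against 1605 to 1657 in Control). Of 8 cardiac or skeletal muscle markers Tnnt2 alone was listed, and was higher (247 to 252 in siSirt6, against 163 to 174 in Control). No listed marker was at 0 in all libraries, and the part of these cell types in the results on mitochondrial genes was not tested. In bulk RNA, fewer cells of a type and less RNA per cell cannot be told apart.

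Most mitochondrial proteins are made in the cytosol and enter through the TOM complex of the outer membrane. The SAM complex then inserts barrel-shaped proteins into the outer membrane, and the TIM23 and TIM22 complexes pass others into the matrix or the inner membrane, with small Tim chaperones and the Chchd4 relay working in the space between. Carriers of the Slc25a family are themselves cargo of this system, and move nucleotides, phosphate, organic acids, amino acids and cofactors across the inner membrane. Fusion, fission and mitophagy set the shape and turnover of the organelle, which in smooth muscle is bound up with contraction and proliferation.

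Promoter sequences (RefSeq, GRCm38.p6, from 250 bases before to 50 bases after a gene's start) were found for 56 of the 69 genes, 63 promoters in all. Short motifs known from nuclear genes of mitochondria were searched on both strands. CCGGAAG, the core bound by ETS factors such as GABPA, was in 18 of the 63 (28.6%), against 16.7% of the 6963 promoters of all genes tested and 8.86% of the 32851 promoters in the table. The NRF1 motif, GCGCA and GCGC with 1 base between them, was in 9 (14.3%), against 9.52% of tested and 4.6% of all promoters. The E-box CACGTG was in 12 (19.0%), against 10.4% of tested and 7.15% of all promoters, the order in which the next shares are given too. Every CACGTG also holds ACGTG, the core of the hypoxia element, which was in 28.6% of the members' promoters, against 25.6% and 19.6%. Less frequent was AAGATGGCG, bound by YY1, in 3 (4.76%, against 3.20% and 1.40%). TCAAGGTCA, bound by oestrogen-related receptors, was in 1 promoter alone, of Timm8b (1.59%, against 0.273% and 0.423%). TATAAA was in 3 (4.76%, against 7.64% and 13.6%), while CCAAT was in 42.9%, against 36.4% and 37.4%. A match is a run of letters and not a measured binding site, and several promoters can belong to 1 gene.

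The following windows of 60 bases show such matches upstream of genes described in the results, read 5′ to 3′ on the strand of the gene, with the motif in capitals. For import through the outer membrane they are the ETS core of the receptor Tomm22 (plus strand, chr15:79670797-79670856) and of the receptor Tomm70a (plus strand, chr16:57121607-57121666). For the prohibitin Phb2 the ETS core lies in reverse (plus strand, chr6:124712189-124712248). The NRF1 motif is shown, in both cases in reverse, for the import oxidoreductase Chchd4 (minus strand, chr6:91473585-91473644) and the phosphate carrier Slc25a3 (minus strand, chr10:91124147-91124206). The E-box is shown for the citrate carrier Slc25a1 (minus strand, chr16:17928410-17928469), the prohibitin Phb (plus strand, chr11:95666707-95666766) and the matrix protease Lonp1 (minus strand, chr17:56626907-56626966). The genes shown were all higher in siSirt6, but the same motifs also lie upstream of lower genes. Among these are Tomm20, Slc25a36 and Slc25a15 for the E-box, Tomm20 and Pink1 for NRF1, and Timm29 for the ETS core. A link between motif and direction was not tested.
Tomm22: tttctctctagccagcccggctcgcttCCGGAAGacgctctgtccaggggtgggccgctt
Tomm70a: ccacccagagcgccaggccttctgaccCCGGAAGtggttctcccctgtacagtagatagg
Phb2: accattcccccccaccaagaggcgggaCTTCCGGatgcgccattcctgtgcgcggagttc
Chchd4: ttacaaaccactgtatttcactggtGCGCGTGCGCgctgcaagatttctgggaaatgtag
Slc25a3: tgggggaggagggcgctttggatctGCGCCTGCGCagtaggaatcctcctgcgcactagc
Slc25a1: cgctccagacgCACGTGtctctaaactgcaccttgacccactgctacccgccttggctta
Phb: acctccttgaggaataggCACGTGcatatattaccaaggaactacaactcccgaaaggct
Lonp1: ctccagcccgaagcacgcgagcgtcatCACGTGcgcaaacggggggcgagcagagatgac

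Across the 69 members, most genes of the import machinery were higher after Sirt6 knockdown and carriers were split, with more of them lower. All 69 passed the filter on low values, a count of at least 10 in at least 3 libraries. By limma on log2(count + 1), 46 were higher and 23 lower at an adjusted p under 0.05. Nearly every gene in the tables passes this test: 99.8% of the 7179 tested were called, 50.5% higher and 49.3% lower, so the direction and the size of a change carry more than the call. The members' median log2 fold change was 0.21, against 0.08 over all genes tested, and the median size regardless of sign was 0.35, against 0.37. A change of at least 1.5-fold was found for 10 members (14.5%), against 23.0% of all genes. The groups' ranges did not overlap for 67 members (97.1%), against 96.8% of all genes, the exceptions being Slc25a32 and Timm23.

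**Figure D1:**
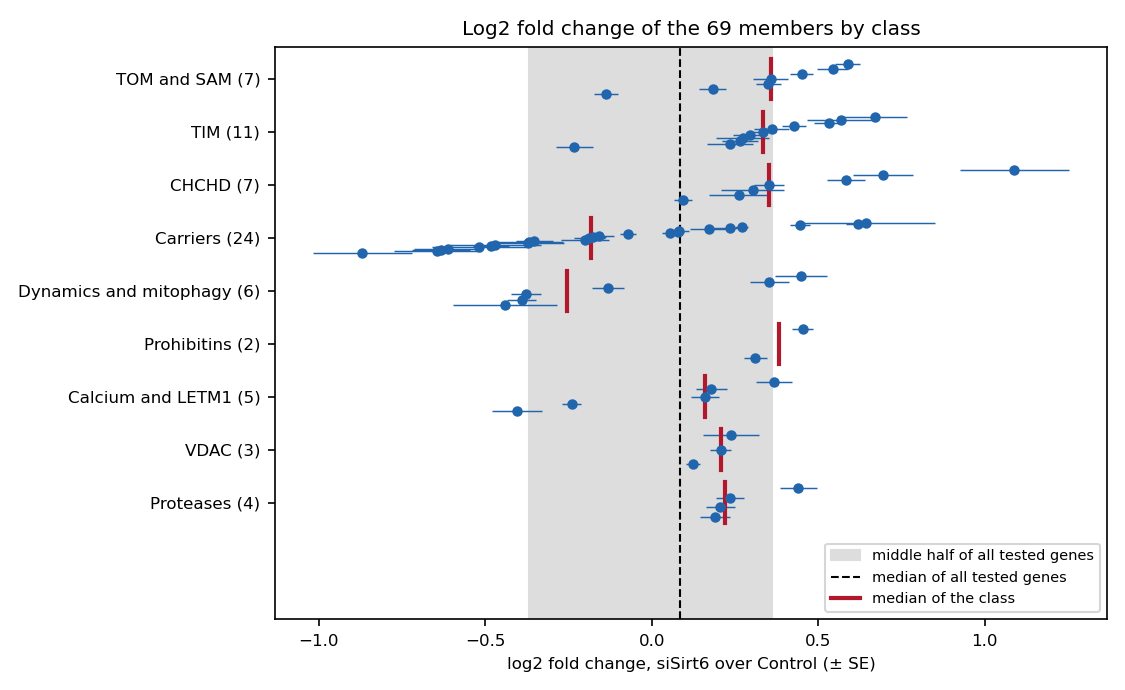
Log2 fold change of each member (x axis, siSirt6 over Control, log2 of normalised count + 1, points with SE from limma), by role in the mitochondrion (y axis), with red lines at the median of each role, a dashed line at the median of all genes tested and grey over their interquartile range. Of the 18 TOM, SAM and TIM genes 16 lie on the higher side, and the 24 carriers spread from -0.87 to 0.64.

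A second reading is needed for each value, because in these libraries fold changes over all genes tested went with transcript length. The genes tested appear to have been selected for differing, so this trend and the shares of all genes describe that selection alone. Of all tested genes with a longest transcript of 67 to 1799 nt, 82.1% were higher in siSirt6, while of those with 5444 to 123179 nt 20.8% were. Fold changes are therefore also given after a smooth trend of the log2 value on length and GC content, fitted in each library over all genes, was removed. This was done with the longest transcript of each gene and again with its principal transcript, and the 2 values are given in that order as trend-removed. With the trend removed, 31 members were higher and 19 lower by the longest transcript, against a background of 37.5% and 36.9% of all genes, and 32 were higher and 20 lower by the principal one, against 36.8% and 37.0%. Both direction and call were the same in all 3 fits for 45 members, 28 higher and 17 lower, and the matching share of all genes was not computed. Without and with removal, they were the same for 47 of the 69 members by the longest transcript and 49 by the principal one. Of all genes, 35.7% were higher and 33.7% lower both without and with removal by the longest transcript, and 35.0% and 33.5% both without and with removal by the principal one. Adjusted over all 55536 annotated genes, 62 members were still called by limma, against 90.3% of the genes tested.

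The translocases of both membranes were mostly higher. Of 18 TOM, SAM and TIM genes, 16 were higher and 2 lower, with a median log2 fold change of 0.35. When each library was scaled to its listed total, which moves the median of all genes by -0.12 from 0.08 to -0.03, 13 were higher and 2 lower. The shares of all genes called under that scaling were not computed, here or for the groups below. With the trend removed, 13 were higher, 1 lower and 4 without a call by either transcript, with medians of 0.21 and 0.20.

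Samm50, the core of the SAM complex (chr15:84192241-84217267, plus strand, GRCm38), had the largest rise at the outer membrane, with normalised counts of 2307, 2342 and 2165 in siSirt6, against 1483, 1503 and 1541 in Control. Its lowest siSirt6 library lay far above its highest Control library, a 1.5-fold difference (log2 0.59 ± 0.038 SE, limma adjusted p = 1.93e-15). That rise was not smaller once the trend was removed (0.72 and 0.76). Tomm40, the channel through which proteins cross the outer membrane (chr7:19701313-19715438, minus strand), had 2635, 2667 and 2511 in siSirt6, against 1923, 1894 and 1897 in Control, 1.37-fold (log2 0.45 ± 0.035 SE). Tomm5, a small subunit attached to that channel, had 1382, 1440 and 1328 in siSirt6, against 984, 929.8 and 933 in Control, 1.46-fold (log2 0.54 ± 0.046 SE). All siSirt6 libraries of both genes lay above all Control libraries, and the trend-removed changes were 0.36 and 0.21 for Tomm40, and 0.14 and 0.15 for Tomm5.

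The receptors did not move as one. Tomm22, the central receptor whose promoter window is shown above, had 2233, 2065 and 2116 in siSirt6, against 1714, 1653 and 1663 in Control, 1.27-fold, and Tomm70a, a receptor for carrier precursors, was 1.14-fold. Tomm20, the receptor for presequences, had 1974, 2042 and 1940 in siSirt6, against 2276, 2158 and 2121 in Control, 0.909 of the Control level (log2 -0.14 ± 0.036 SE, limma adjusted p = 8.70e-04). Tomm20 was thus the only TOM or SAM gene listed that was lower, without overlap between the groups, but its change was 0.08 and 0.16 with the trend removed, called higher in both. Tomm7, another small subunit, was 1.28-fold, with 0.07 (no call) and 0.18 after trend removal.

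At the inner membrane, Timm50, the receptor of TIM23, had 1575, 1515 and 1423 in siSirt6, against 1051, 1037 and 1027 in Control, 1.45-fold (log2 0.53 ± 0.045 SE, limma adjusted p = 1.50e-12). Timm17a, a channel subunit of TIM23 (chr1:135295213-135313778, minus strand), had 2365, 2295 and 2427 in siSirt6, against 1798, 1775 and 1701 in Control, 1.34-fold (log2 0.43 ± 0.036 SE). The groups were well apart for both, and Timm17a, whose longest transcript is long at 7280 nt, stood at 0.76 and 0.78 with the trend removed, the largest such value among the TIM genes by either transcript. Timm44, which tethers the import motor to the channel, was 1.2-fold. Timm23, the other channel subunit, was 1.18-fold with 1157, 1099 and 1281 in siSirt6, against 961, 1120 and 929 in Control. Its ranges overlapped because Control replicate 2 stood above siSirt6 replicate 2, and 90.9% of its 50-base words occur in another annotated gene, so reads could be split between copies. Timm23 had no call when scaled to listed totals or with the trend removed (-0.10 and -0.04).

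Among the small Tims, chaperones that escort hydrophobic precursors between the membranes, Timm10 (chr2:84826997-84830213, plus strand) had 302, 311 and 306 in siSirt6, against 181, 194 and 200.9 in Control, 1.59-fold (log2 0.67 ± 0.093 SE, limma adjusted p = 9.99e-08). Timm13 had 2109, 2010 and 2086 in siSirt6, against 1729, 1646 and 1552 in Control, 1.26-fold (log2 0.33 ± 0.040 SE). Neither gene's groups overlapped. With the trend removed Timm10 remained higher at 0.22 and 0.23, whereas Timm13 lost its call at -0.05 and -0.01. Timm8a1, Timm8b and Timm9 were 1.49-fold, 1.28-fold and 1.21-fold, and 41.0% of the 50-base words of Timm8a1 occur in another gene. Timm8a1 stayed higher with the trend removed (0.30 and 0.36), Timm8b lost its call (-0.11 and -0.07), and Timm9 lost it by the principal transcript (0.25 and -0.10).

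The TIM22 complex inserts the carriers into the inner membrane. Its channel Timm22 was 1.23-fold and higher, while its subunit Timm29 had 895, 844 and 765 in siSirt6, against 956, 1014 and 967 in Control, 0.853 of the Control level (log2 -0.23 ± 0.055 SE, limma adjusted p = 2.63e-04). Every siSirt6 library of Timm29 lay below every Control library, and it was the lower TIM gene in all 3 fits (-0.25 and -0.17 with the trend removed).

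**Figure D2:**
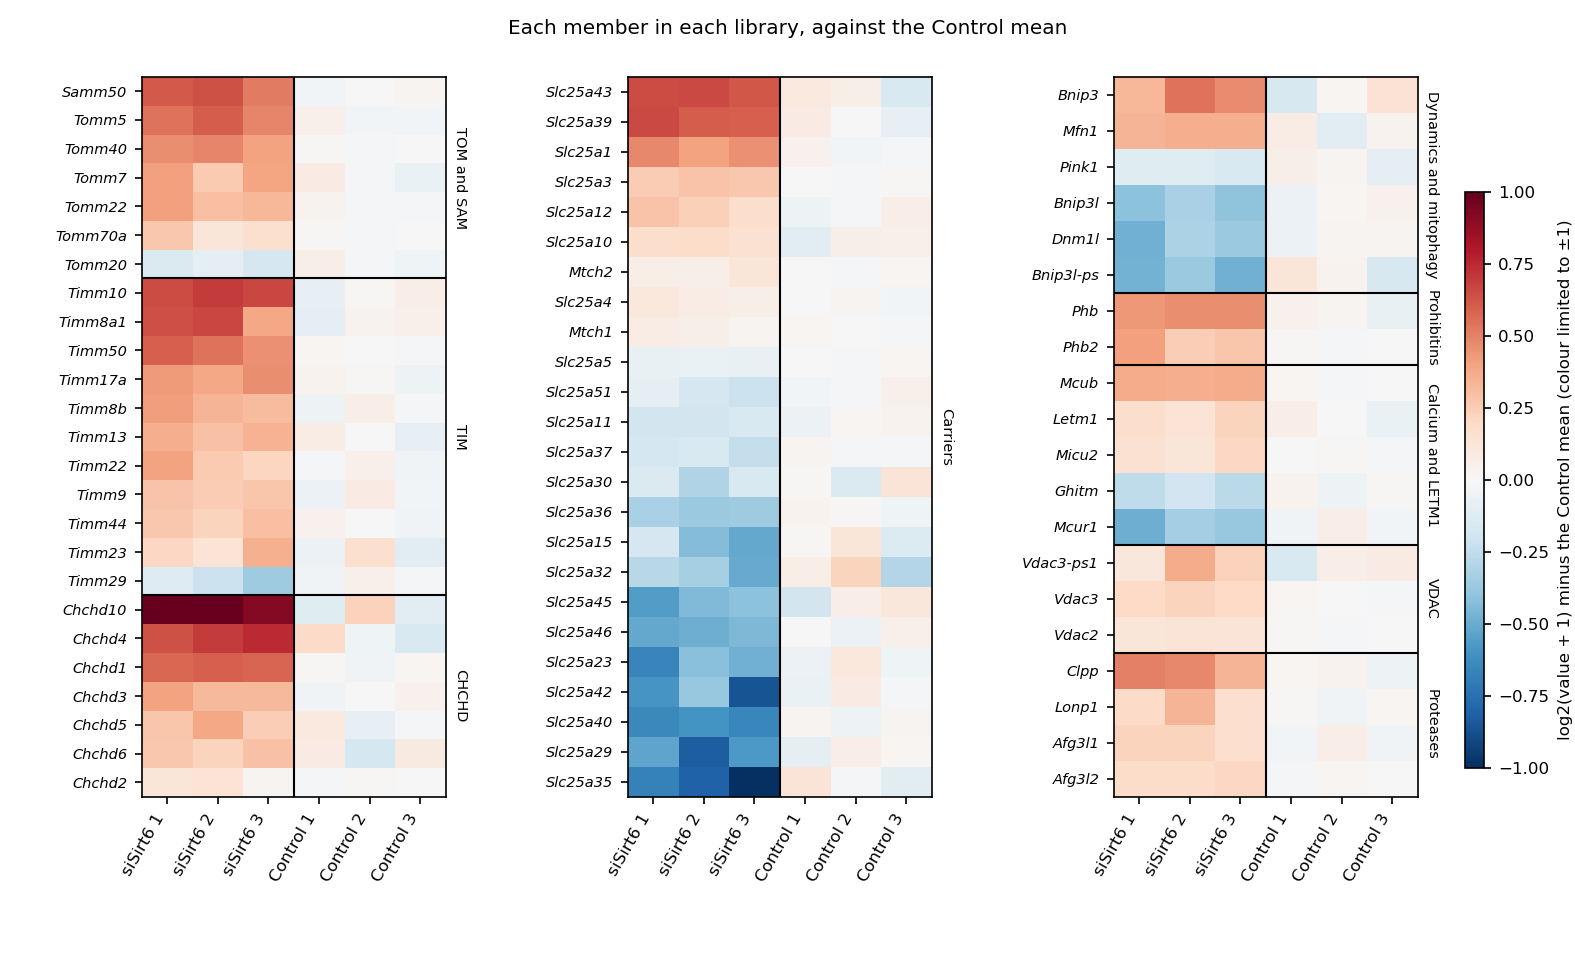
Heat map of the 69 members (rows, grouped by role) in the 6 libraries (columns, siSirt6 left, Control right), coloured by log2(normalised count + 1) minus the gene's Control mean, with colours saturating at 1 and -1. Most import genes are red in all 3 siSirt6 libraries, while the carriers run from red at Slc25a43 to blue at Slc25a35.

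All 7 Chchd genes, named for the CHCH domain, a cysteine motif common in the intermembrane space, were higher, with a median log2 fold change of 0.35. Scaled to listed totals 4 were higher and none lower, and with the trend removed 4 were higher by either transcript, with 0 and 1 lower. Chchd10, a protein of cristae junctions mutated in human motor neuron disease, had 119, 139 and 107 in siSirt6, against 51.7, 66.2 and 52.2 in Control, 2.15-fold (log2 1.09 ± 0.164 SE, limma adjusted p = 4.40e-07). This was the largest rise of the 69, its groups were far apart, and the trend-removed values were 0.77 and 0.72. Of its exon sequence, 11.4% overlaps Mmp11 on the other strand. The sources used here do not say whether the counting used strand.

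Chchd4, the oxidoreductase that traps cysteine-rich precursors such as the small Tims by forming disulphides, had 384, 401 and 413 in siSirt6, against 282, 239.5 and 221 in Control, 1.61-fold (log2 0.69 ± 0.090 SE, limma adjusted p = 2.36e-08). Its groups did not overlap and its rise was not smaller with the trend removed (0.76 and 0.88). Chchd1, a subunit of the mitochondrial ribosome, had 795, 804 and 797 in siSirt6, against 537, 521 and 539.9 in Control, 1.5-fold. Chchd3, a subunit of the MICOS complex that shapes cristae, had 1473, 1397 and 1393 in siSirt6, against 1085, 1110 and 1144 in Control, 1.28-fold. Neither overlapped between groups, and both stayed higher with the trend removed (0.15 and 0.20 for Chchd1, 0.12 and 0.19 for Chchd3). Chchd5, Chchd6 and Chchd2 were 1.24-fold, 1.2-fold and 1.07-fold, and none of the 3 stayed higher with the trend removed. Chchd5 (-0.02 and 0.05) and Chchd6 (0.11 and -0.10) had no call, and Chchd2 had none by the longest transcript (-0.04) and was called lower by the principal one (-0.26).

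The carriers went the other way on balance: of 24, 9 were higher and 15 lower, with a median log2 fold change of -0.18, and of the 22 Slc25a genes alone 7 were higher and 15 lower. Scaled to listed totals, 5 carriers were higher and 16 lower, and with the trend removed 5 were higher and 12 lower by either transcript. Without trend removal, of the 10 abundant carriers (Control mean of at least 1000) 6 were higher and 4 lower. Of the 14 below that level 3 were higher and 11 lower. The 6 include Mtch1 and Mtch2, which are not Slc25a genes. Scaled to listed totals, Mtch1 was called lower, and Mtch2 and Slc25a4 lost their call. With the trend removed, the abundant carriers Slc25a39, Slc25a1, Slc25a3 and Mtch2 stayed higher. Mtch1 was then called lower in both fits and Slc25a4 by the longest transcript. Slc25a5 and Slc25a11 stayed lower in both, Slc25a51 by the principal transcript alone, and Slc25a37 had no call. Shares of all genes at these levels were not computed.

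The higher carriers include those of phosphate, citrate and glutathione. Slc25a39, a glutathione importer, had 3555, 3420 and 3403 in siSirt6, against 2388, 2241 and 2131 in Control, 1.53-fold (log2 0.62 ± 0.035 SE, limma adjusted p = 1.88e-16). Slc25a1, which exports citrate for lipid synthesis, had 4193, 3970 and 4121 in siSirt6, against 3096, 2946 and 2977 in Control, 1.36-fold (log2 0.45 ± 0.030 SE). Slc25a3, the phosphate carrier that feeds ATP synthesis, had 12079, 12312 and 12168 in siSirt6, against 10089, 10017 and 10217 in Control, 1.21-fold (log2 0.27 ± 0.020 SE). All 3 were apart between groups by much more than the spread within them and kept their call with the trend removed (0.35 and 0.39 for Slc25a39, 0.17 and 0.21 for Slc25a1, 0.42 and 0.05 for Slc25a3). Slc25a43, a family member of low abundance, had 56.4, 56.7 and 55.2 in siSirt6, against 38.1, 37.0 and 31.9 in Control, 1.57-fold, and lost its call with the trend removed (0.32 and 0.30). Slc25a12, an aspartate and glutamate carrier, was 1.18-fold and reached 0.51 and 0.54 with the trend removed, while Slc25a10, the dicarboxylate carrier, was 1.12-fold and lost its call (-0.03 and 0.02).

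The carriers that exchange ADP for ATP were listed as Slc25a4 and Slc25a5. Slc25a4 had 13068, 12787 and 12638 in siSirt6, against 12169, 12385 and 11930 in Control, 1.05-fold. Slc25a5 had 5805, 5843 and 5793 in siSirt6, against 6086, 6038 and 6206 in Control, 0.952 of the Control level. The groups did not overlap for either, but 46.6% of the 50-base words of Slc25a5 occur elsewhere, and both were negative with the trend removed. Slc25a5 was then at -0.38 and -0.32, called lower in both, and Slc25a4 at -0.11 (called lower) and -0.04 (no call). Per kilobase of principal transcript, the most abundant members were Slc25a3 (8217 in siSirt6, against 6816 in Control), Slc25a4 (6666 in siSirt6, against 6318 in Control), Chchd2 (5507 in siSirt6, against 5155 in Control), Vdac2 (5284 in siSirt6, against 4847 in Control) and Slc25a5 (4689 in siSirt6, against 4927 in Control). The least abundant in siSirt6 was Slc25a23 (26.6 in siSirt6, against 38.2 in Control), and in Control Slc25a43 (50.5 in siSirt6, against 32.1 in Control). Mtch1 and Mtch2, outer membrane relatives of the carriers, were 1.04-fold and 1.06-fold. Mtch2 stayed higher with the trend removed (0.13 and 0.16), and Mtch1 was called lower when scaled to listed totals and with the trend removed (-0.12 and -0.11).

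The lower carriers were led by genes of modest level. Slc25a35 had 86.0, 78.3 and 62.4 in siSirt6, against 150.3, 136 and 127 in Control, 0.548 of the Control level (log2 -0.87 ± 0.150 SE, limma adjusted p = 4.04e-06), the largest fall of the 69. Its groups did not overlap, and 31.3% of its exon sequence overlaps Rangrf on the other strand. Slc25a29, a carrier of basic amino acids, had 112, 90.7 and 108 in siSirt6, against 152, 169 and 164 in Control, 0.639 of the Control level. Slc25a40, the relative of the glutathione importer Slc25a39, had 223, 231 and 223 in siSirt6, against 357, 338 and 357 in Control, 0.643 of the Control level (log2 -0.63 ± 0.086 SE). Slc25a42, which brings in coenzyme A, had 211, 244 and 174 in siSirt6, against 303, 337 and 314 in Control, 0.659 of the Control level. None of these overlapped between groups, and all 4 stayed lower with the trend removed, at -0.43 or lower.

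Slc25a23, a calcium-regulated ATP-magnesium and phosphate carrier, had 81.1, 95.9 and 91.6 in siSirt6, against 123, 138 and 125 in Control, 0.696 of the Control level. Slc25a46, an outer membrane member of the family that affects fission and cristae, had 633, 643 and 661 in siSirt6, against 905, 868 and 937 in Control, 0.715 of the Control level (log2 -0.48 ± 0.054 SE, limma adjusted p = 1.42e-09). Slc25a36, a pyrimidine nucleotide carrier, had 678, 657 and 666 in siSirt6, against 871, 859.7 and 825 in Control, 0.783 of the Control level. The groups were apart for all 3, and Slc25a36 alone among them lost its call with the trend removed (-0.10 and -0.08). Slc25a45, Slc25a15 (an ornithine carrier) and Slc25a32 (a folate and FAD carrier) were 0.718, 0.775 and 0.766 of their Control levels, and Slc25a32 alone among them lost its call with the trend removed (-0.08 and -0.08). Slc25a30, Slc25a37 (which imports iron), Slc25a11 (the oxoglutarate and malate carrier) and Slc25a51 (which imports NAD) were at 0.868 to 0.897. After trend removal Slc25a11 stayed lower (-0.42 and -0.36), Slc25a30 (-0.11 and 0.01) and Slc25a37 (0.05 and -0.025) had no call, and Slc25a51 had one by the principal transcript alone (-0.015 and -0.53).

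**Figure D3:**
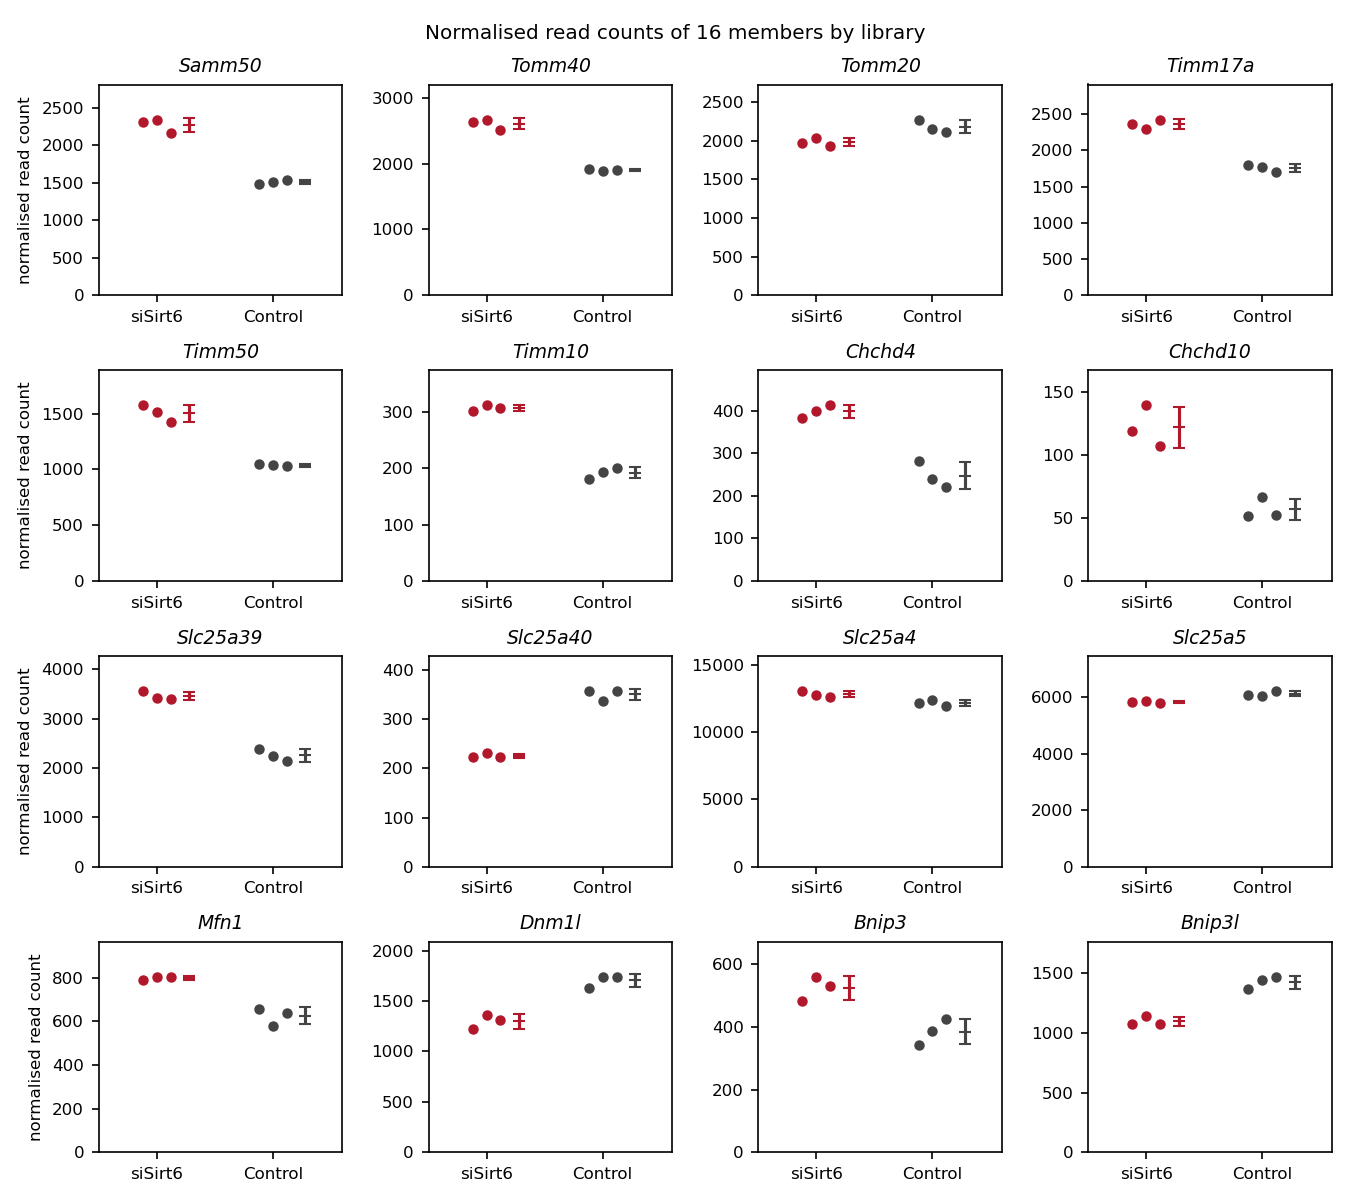
Normalised read counts (y axis, linear from 0) of 16 members in each library, siSirt6 left and Control right in each panel, with points for libraries and bars for mean ± SD (n = 3 each). Samm50, Chchd4 and Slc25a39 lie higher in all siSirt6 libraries, Slc25a40 and Dnm1l lower, and Slc25a4 and Slc25a5 nearly level.

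Mfn1 and Dnm1l differed in opposite directions, as did Bnip3 and Bnip3l. Mfn1, a mitofusin that joins outer membranes, had 790.1, 804 and 803 in siSirt6, against 657, 581 and 640.3 in Control, 1.28-fold (log2 0.35 ± 0.058 SE, limma adjusted p = 1.93e-06). Dnm1l, the dynamin-related GTPase that divides mitochondria, had 1220, 1366 and 1314 in siSirt6, against 1633, 1739 and 1739 in Control, 0.763 of the Control level (log2 -0.39 ± 0.044 SE, limma adjusted p = 1.23e-09). Neither overlapped between groups, and both kept their direction with the trend removed (0.54 and 0.48 for Mfn1, -0.24 and -0.19 for Dnm1l).

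Bnip3, a mitophagy receptor induced by hypoxia, had 483, 559 and 531 in siSirt6, against 342, 388 and 424 in Control, 1.36-fold. Bnip3l, its relative, also called Nix, had 1074, 1139 and 1078 in siSirt6, against 1366, 1442 and 1471 in Control, 0.769 of the Control level (log2 -0.38 ± 0.044 SE, limma adjusted p = 3.67e-09). The groups were separate for each, and neither changed direction with the trend removed (0.31 and 0.37 for Bnip3, -0.31 and -0.23 for Bnip3l). For Bnip3, 21.9% of the 50-base words occur in another gene and 22.3% of the exon sequence overlaps a gene on the other strand. For Bnip3l, 23.4% of the words are shared with its pseudogene Bnip3l-ps, which had 72.2, 77.3 and 71.8 in siSirt6, against 109, 103 and 89.8 in Control, 0.732 of the Control level. Of the words of Bnip3l-ps, 73.9% occur in Bnip3l, so reads could be split between these copies. Pink1, the kinase that marks damaged mitochondria, had 1078, 1076 and 1052 in siSirt6, against 1223, 1195 and 1099 in Control, 0.912 of the Control level (log2 -0.13 ± 0.047 SE, limma adjusted p = 0.00928), a small difference without overlap. That call was lost without Control replicate 1, by DESeq2 and with adjustment over all annotated genes.

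Ratios of related genes within a library need no scaling between libraries, though they still hold the trend on length. The 6 pairs were chosen after their values had been seen, so the ratios are a description, given on the log2 scale per kilobase of principal transcript, first gene over the second. Slc25a39 over Slc25a40 was 4.62, 4.52 and 4.56 in siSirt6, against 3.37, 3.36 and 3.20 in Control, a difference of 1.26 between the means. Mfn1 over Dnm1l was -0.12, -0.26 and -0.20 in siSirt6, against -0.81, -1.07 and -0.93 in Control. Bnip3 over Bnip3l was -0.27, -0.14 and -0.14 in siSirt6, against -1.11, -1.01 and -0.91 in Control. All 3 ratios were higher in every siSirt6 library, by 1.26, 0.74 and 0.83. Samm50 over Tomm20 differed by 0.73, Tomm40 over Tomm20 by 0.59 and Slc25a4 over Slc25a5 by 0.15, again with no overlap. As differences of trend-removed fold changes, by longest then principal transcript, Slc25a39 and Slc25a40 stood 0.78 and 0.95 apart, Mfn1 and Dnm1l 0.78 and 0.67, and Bnip3 and Bnip3l 0.62 and 0.60. Samm50 and Tomm20 stood 0.64 and 0.60 apart, Slc25a4 and Slc25a5 0.27 and 0.28, and Tomm40 and Tomm20 0.28 and 0.05.

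The prohibitins, which form ring-shaped scaffolds in the inner membrane, were both higher. Phb had 3807, 3894 and 3883 in siSirt6, against 2904, 2878 and 2684 in Control, 1.37-fold (log2 0.45 ± 0.032 SE, limma adjusted p = 1.29e-14). Phb2 had 3641, 3239 and 3312 in siSirt6, against 2756, 2716 and 2730 in Control, 1.24-fold (log2 0.31 ± 0.035 SE). Every siSirt6 library lay above every Control library for both. With the trend removed Phb was at 0.21 and 0.26, and Phb2 at 0.18 by the longest and -0.0002 by the principal transcript. Of the 50-base words of Phb, 47.3% occur in another gene.

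Genes of calcium handling were split, 3 higher and 2 lower. Mcub, an inhibitory subunit of the calcium uniporter, had 884, 876 and 881 in siSirt6, against 693, 672 and 683 in Control, 1.29-fold (log2 0.37 ± 0.053 SE, limma adjusted p = 1.86e-07). Mcur1, a regulator of the uniporter, had 325, 361 and 352 in siSirt6, against 446, 478 and 449 in Control, 0.756 of the Control level (log2 -0.40 ± 0.075 SE). Ghitm, an inner membrane protein involved in cristae and calcium, had 3966, 4146 and 3919 in siSirt6, against 4852, 4578 and 4780 in Control, 0.847 of the Control level. None overlapped between groups. The falls of Mcur1 and Ghitm kept their call with the trend removed, and Mcub, at 0.05 and 0.12, lost it by the longest transcript. Letm1, a cation exchanger, and Micu2, a gatekeeper of the uniporter, were 1.13-fold and 1.12-fold. After trend removal Letm1 was at 0.35 and 0.38, and Micu2 at 0.07 (no call) and 0.17.

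The Vdac genes encode the main metabolite channels of the outer membrane, and the listed ones were slightly higher. Vdac2 had 10303, 10339 and 10333 in siSirt6, against 9562, 9418 and 9432 in Control, 1.09-fold (log2 0.12 ± 0.021 SE). Vdac3 had 2494, 2539 and 2504 in siSirt6, against 2201, 2186 and 2144 in Control, 1.15-fold (log2 0.21 ± 0.033 SE). Both lay higher in every siSirt6 library, but Vdac2 was at -0.0071 and 0.015 with the trend removed, without a call, and Vdac3 at 0.39 and 0.09. The pseudogene Vdac3-ps1 had 366, 438 and 395 in siSirt6, against 304, 354 and 357 in Control, and no call with the trend removed. Of its 50-base words, 81.8% occur in other genes, of which Vdac3 shares the most.

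The 4 matrix and inner membrane proteases among the members were all higher. Clpp, the peptidase of the ClpXP protease, had 970.0, 957 and 867 in siSirt6, against 693, 701 and 663 in Control, 1.36-fold (log2 0.44 ± 0.055 SE, limma adjusted p = 1.47e-08). Lonp1, the main protease of the matrix, had 1845, 2042 and 1814 in siSirt6, against 1626, 1576 and 1634 in Control, 1.18-fold. Afg3l1, a subunit of the m-AAA protease of the inner membrane, had 1371, 1376 and 1324 in siSirt6, against 1152, 1229 and 1149 in Control, 1.15-fold. The groups were apart for each, and Afg3l2, the paralogue of Afg3l1, was 1.14-fold. With the trend removed Clpp was at -0.0006 and 0.045, with no call, while Lonp1, Afg3l1 and Afg3l2 stayed higher, at 0.20 to 0.36. Other proteases, from the separate list described below, went both ways. Spg7 was at 0.87 of its Control level and stayed lower with the trend removed (-0.21 and -0.23). Yme1l1 was at 0.91 with overlapping ranges, and was called higher with the trend removed (0.12 and 0.16). Parl was 1.37-fold and stayed higher (0.33 and 0.22).

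**Figure D4:**
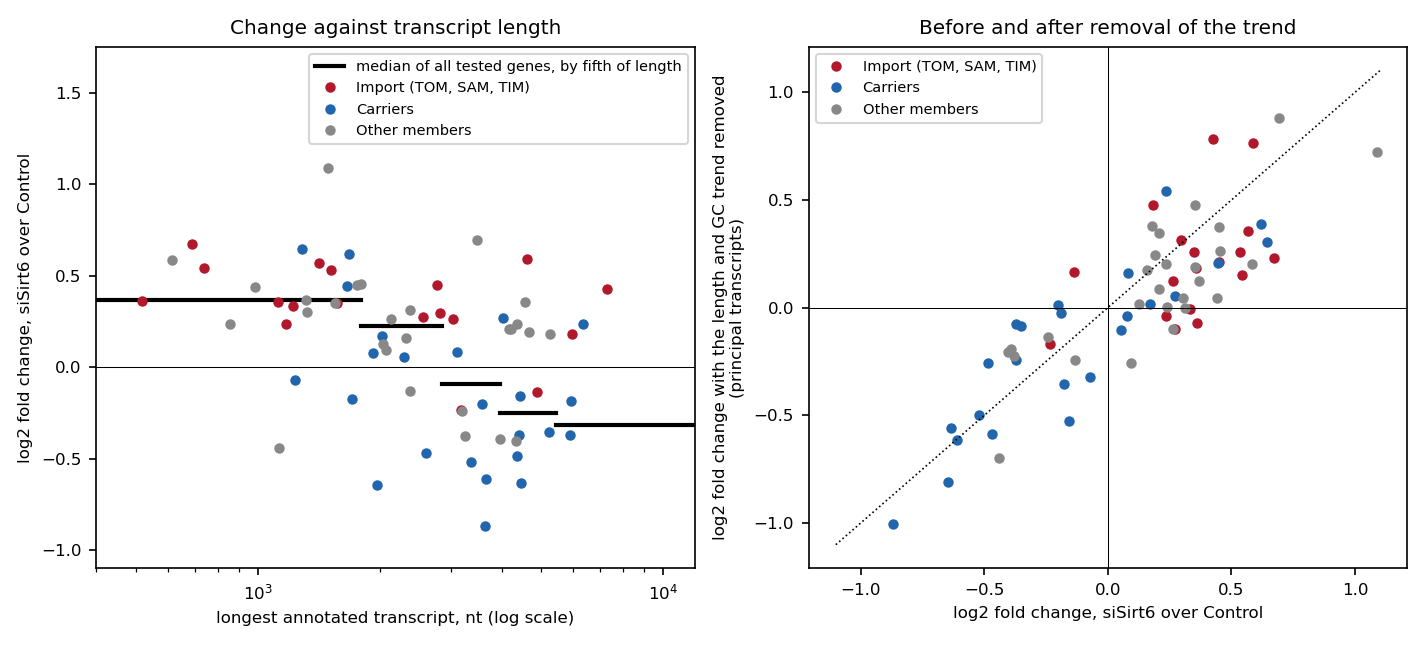
Left, log2 fold change (siSirt6 over Control) of each member against the length of its longest transcript (x axis, nt, log scale), with black lines at the median of all genes tested in 5 equal classes of length. Right, the members' log2 fold change with the trend on principal transcripts removed (y axis) against that before removal (x axis), with a dotted line of equality. The black lines step down from 0.37 to -0.32, and Samm50 and Timm17a lie above the dotted line.

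Length was set beside role. Over members the fold change went with the length of the longest transcript at Spearman's rho of -0.46 (69 genes), against -0.43 over all genes (7130), values across genes of the same 6 libraries that are not independent replicates. The median length was 2066.5 nt for the TOM, SAM and TIM genes, 3475 nt for the carriers and 3383.5 nt for all genes tested. In 5 equal classes of length, 9 of 9 translocase genes were higher in the shortest class, then 3 of 3, 1 of 2, 1 of 2, and 2 of 2 in the longest. Of the carriers, 3 of 5 were higher in the shortest class, then 3 of 5, 1 of 5, 1 of 6, and 1 of 3 in the longest. Of all genes, 82.1%, 66.0%, 49.1%, 33.8% and 20.8% were higher in these classes.

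The members as a whole took 0.859%, 0.855% and 0.851% of the listed values in siSirt6, against 0.839%, 0.836% and 0.832% in Control. All siSirt6 shares were above all Control shares, a difference of 0.0193 percentage points (exact permutation test, 2-sided, p = 0.1, the smallest that 3 against 3 allow). The translocases took 0.164% ± 0.0028 in siSirt6, against 0.143% ± 0.0022 in Control, and the carriers 0.384% ± 0.0019 in siSirt6, against 0.389% ± 0.0005 in Control (SD, n = 3 each).

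A separate list of 103 genes that work beside the members held 48 that were in the tables, 32 higher and 16 lower, with a median log2 fold change of 0.21. After trend removal 24 were higher and 13 lower by the longest transcript (median 0.10), and 23 higher and 16 lower by the principal one (median 0.05). Partners of import made up 15 of these, 14 higher and 1, the presequence peptidase subunit Pmpca, lower, with a median of 0.29. When the trend was removed 9 of the 15 were higher and 2 lower by the longest transcript, and 9 higher and 3 lower by the principal one. Romo1, a regulator of TIM23, was called lower in both (-0.26 and -0.34), and Pam16, of the import motor, by the principal transcript (-0.20). Hspd1, the chaperonin that folds imported proteins, had 5970, 6009 and 5785 in siSirt6, against 4216, 4185 and 4299 in Control, 1.40-fold (log2 0.48 ± 0.026 SE, limma adjusted p = 1.25e-17). Its co-chaperonin Hspe1 had 3868, 3955 and 3726 in siSirt6, against 2873, 2841 and 2767 in Control, 1.36-fold. Both were apart between groups. Grpel1 and Hspa9, the nucleotide exchange factor and the chaperone of the import motor, were 1.36-fold and 1.21-fold.

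The other listed genes fell into smaller groups. All 4 cristae genes were higher, with a median of 0.32, and with the trend removed 3 were higher and Micos13 was lower (-0.22 and -0.16). Proteases and quality control genes were 5 higher and 5 lower: Stoml2, an inner membrane scaffold, had 1596, 1589 and 1415 in siSirt6, against 1063, 1011 and 1003 in Control (1.5-fold), and Sqstm1, an autophagy adaptor, had 11186, 11153 and 11253 in siSirt6, against 9415, 9223 and 9162 in Control (1.21-fold), while the mitophagy receptor Fundc1 and the adaptor Optn were at 0.760 and 0.727 of their Control levels. Stoml2, Sqstm1, Fundc1 and Optn kept their calls with the trend removed. Further dynamics genes were 1 higher, Mief1, a receptor of Dnm1l, and 3 lower, among them Mtfp1 at 0.611 and the motor adaptor Rhot1 at 0.791. Rhot1 lost its call by the principal transcript (-0.11). Genes of mitochondrial DNA and biogenesis were 3 higher and 4 lower, with Nrf1 1.14-fold and Gabpa, an ETS factor, at 0.822 of its Control level. Nrf1 lost its call by the principal transcript (0.02) and Gabpa by the longest (-0.05), and the group was 4 higher and 1 lower by the longest and 2 higher and 3 lower by the principal one. Other transporters were 5 higher and 3 lower, but 2 higher and 4 lower with the trend removed by the longest transcript, and 3 higher and 4 lower by the principal one. Smdt1, a uniporter subunit (-0.22 and -0.23), and Tspo, an outer membrane protein (-0.22 and -0.18), were then called lower in both.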

How the data were processed

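Libraries were made with a stranded poly(A) kit from total RNA, per the labels' protocols. HISAT2, HTSeq, Cufflinks, Trimmomatic and the build mm10 appear in the submitters' processing notes, with no versions or roles. The deposited signal per gene is whole reads divided by 1 factor per library: every value came out whole within 0.001 reads. The factors were 1.0113, 0.9701 and 0.9609 for siSirt6 and 1.0248, 1.0271 and 1.0354 for Control, and the sources used here do not say how the authors set them. Whole library depth is unknown. The tables appear to hold genes selected for differing, since 13 of 7179 tested genes had an unadjusted p of at least 0.05.

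The main test was limma 3.58.1 in R 4.3.3, 2-sided, with robust empirical Bayes and a mean-variance trend, on log2(value + 1). Genes needed 10 or more in 3 or more libraries, which left out 205 of 7384. Fold changes on that scale understate the change of low genes. N-fold values are ratios of group means. Benjamini-Hochberg adjustment ran over all 7179 genes with a threshold of 0.05. On simulated data with 200 of 7151 genes changed, this test recovered 82.1% of 1.2-fold and 98.5% of 1.5-fold changes, with 9 false calls. The changed genes were drawn from those with higher counts, and the spread was set by hand. In the real libraries nearly every gene was called and fold changes went with length, so these rates do not measure error there. Length, GC content, positions and overlaps came from GENCODE vM21 (GRCm38), which held 7332 of the identifiers; 7331 had a length. The trend on length and GC content was a smooth fit per library (mgcv 1.9.3), subtracted before limma. The fit on principal transcripts, which 67 members had, was added after seeing the data. edgeR 4.0.16 and DESeq2 1.42.0 were run as alternatives on the recovered reads of 5 libraries, because a check of the unit did not accept the step of siSirt6 replicate 1.

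Members and lists were chosen with earlier results of these data known. The genes named with every library's value were, from each role, the 3 with the smallest p (6 for carriers), the 5 largest rises and 5 largest falls, and the 4 with the smallest p of the separate list. Tomm22, Tomm20, Timm23, Timm29, Slc25a4, Slc25a5, Bnip3, Pink1 and Bnip3l-ps were added after their values were seen, to show exceptions and paralogues, as were the genes of the separate list named beside its first 4. Hspb7 (log2 fold change 1.22), which is not a mitochondrial gene, had been placed in the separate list in error and was taken out after its values were seen.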

Additional observations from a re-analysis of the deposited data

How the results depend on the processing

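No exact test over libraries can go below p = 0.1 here, and counts of calls say little, since the tables appear preselected. Scaled to listed totals, 30 members were higher (46 before) and 24 lower. The shares of all genes called were not computed for this scaling, for the fits that left out 1 library, or for edgeR and DESeq2. Those counts of members therefore stand without a background. Over the 6 fits that left out 1 library, 44 to 45 were higher, 22 to 23 lower and 8 to 11 changed at least 1.5-fold, and the carriers' median was -0.19 to -0.15. Calls were lost by Pink1, Slc25a10 and Vdac3-ps1 without Control replicate 1, Chchd6 and Mtch1 without Control replicate 2, and Mtch1 and Slc25a30 without Control replicate 3. They were lost by Mtch1 without siSirt6 replicate 1, by Mtch1, Slc25a30 and Vdac3-ps1 without siSirt6 replicate 2, and by Mtch2 without siSirt6 replicate 3. Same-numbered libraries did not deviate together (correlations of -0.019, 0.027 and -0.001). With 3 libraries per group and genes that appear preselected, this cannot exclude that same-numbered libraries share an isolation or a batch. The replicate block left 46 higher and 23 lower, and with the block and the trend removed 31 were higher and 19 lower. edgeR called 45 higher and 23 lower, DESeq2 42 and 21. Adjusted over all annotated genes, limma called 42 higher and 20 lower.

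Medians of log2 fold changes moved as follows. Scaled to listed totals they were 0.088 for all members, 0.24 for TOM and SAM, 0.21 for TIM, 0.23 for CHCH genes, -0.30 for carriers, -0.37 for dynamics, 0.26 for prohibitins, 0.041 for calcium genes, 0.088 for Vdac and 0.10 for proteases. With TMM factors they were 0.18 for all members, -0.21 for carriers and -0.28 for dynamics. With the trend on longest transcripts removed, with or without the replicate block, they were 0.071 for all members, 0.15 for TOM and SAM, 0.22 for TIM, 0.12 for CHCH genes, -0.11 for carriers, 0.19 for prohibitins, 0.053 for calcium genes, -0.0071 for Vdac and 0.30 for proteases. With principal transcripts they were 0.045 for all members, 0.21 for TOM and SAM, 0.12 for TIM, 0.19 for CHCH genes, -0.095 for carriers, -0.21 for dynamics, 0.13 for prohibitins and 0.015 for Vdac.

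With the trend on longest transcripts removed the sign turned for 13 members: Clpp (-0.0006), Timm13 (-0.049), Vdac2 (-0.0071), Vdac3-ps1 (-0.11), Timm8b, Timm23, Tomm20, Chchd2, Chchd5, Mtch1, Slc25a4, Slc25a10 and Slc25a37. By principal transcripts it turned for 11: Phb2 (-0.0002), Timm13 (-0.0057), Timm8b, Timm9, Timm23, Tomm20, Chchd2, Chchd6, Mtch1, Slc25a4 and Slc25a30. Scaled to listed totals, Mtch1 was called lower and 15 members lost their call: Afg3l1, Afg3l2, Chchd2, Chchd5, Chchd6, Letm1, Micu2, Mtch2, Slc25a4, Slc25a10, Timm9, Timm23, Tomm70a, Vdac2 and Vdac3-ps1. Without the 3 members with the highest values, the share differed by 0.0135 percentage points. The causes were not tested.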
